A study of Mus musculus with 71 samples.

Results

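The genes described here are those of the proteasome and of its assembly. They were chosen by name, as every symbol of the table of normalized values that starts with Psm, a letter from a to g and a number, and 49 of the 10508 genes of that table matched. By role, 47 of them encode proteasome subunits, regulators or assembly factors: 7 subunits of the core alpha ring, 7 of the core beta ring, 3 catalytic subunits of the immunoproteasome, 6 ATPases and 11 non-ATPase subunits of the cap, 3 chaperones of cap assembly, 6 activators or inhibitors and 4 assembly factors of the core. Psmc3ip and Psme3ip1 matched by name only. Another 7 symbols of the pattern (Psma8, Psmb11 and 5 pseudogenes) were in the count table alone.

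The data were from whole blood of 71 mice in 6 labelled groups. The paper describes its mice as female Balb/c AnNRj, aged 6 weeks at the start. Systemic sclerosis (SSc), an autoimmune disease with fibrosis, was modelled by intradermal HOCl on 5 days per week for 6 weeks, and control mice (CTRL, n = 11) received PBS. The HOCl group had 12 mice, and 12 HOCl mice each were labelled D11, E07, D06 or BPR21. D11 and E07 are monoclonal antibodies (mAb) against galectin-3, a secreted lectin, given under the skin at 20 mg/kg with an interval of 5 days, and the sources used here do not describe D06 or BPR21. The paper counts fewer mice than are labelled here, so its details of the mice and of HOCl may not cover those groups. It also has a group given TD139, a galectin-3 inhibitor, which no label names. No group was described as treated with a control IgG, so an effect of an injected antibody as such cannot be told apart from that of its target. The genotype label of the CTRL mice reads HOCL, and their group was taken from the title. Markers of blood cells were read for the tissue label: in CTRL mice the counts of the erythroid markers made up on average 7.36% of the library, those of neutrophils 0.569%, platelets 0.374%, T cells 0.175%, B cells 0.140% and monocytes 0.0630%. No other tissue was at hand for comparison.

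The proteasome is the protease that degrades proteins tagged with ubiquitin. Its barrel-shaped core has outer rings of alpha subunits and inner rings of beta subunits that hold the catalytic sites, and a cap with ATPases recognizes, unfolds and feeds in the substrates. In immune cells and under interferon-gamma, Psmb8, Psmb9 and Psmb10 replace the catalytic subunits Psmb5, Psmb6 and Psmb7, and the activator PA28 alpha/beta (Psme1 and Psme2) opens the core, which shapes the peptides shown on MHC class I. Maturing red cells use ubiquitin-dependent degradation to remodel their proteome.

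Values are on the scale of the vst function of DESeq2, which is close to log2, and differences between groups are log2 fold changes. A gene was called when the FDR of limma, adjusted over all 10508 genes, was at most 0.05 and the fold change at least 1.3. The table of vst values leaves out HOCl mouse 8, which left 11 HOCl mice in these tests. Between 11932855 and 15948972 reads per mouse were counted (median 13719277).

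In HOCl mice 4 of the 49 genes were higher than in CTRL mice and none was lower. They were Psme3 (the activator PA28 gamma), Psmf1 (PI31, a protein that binds and inhibits the core in vitro), Psmd4 (a ubiquitin receptor of the cap) and Psme4 (the activator PA200). The same 4 were lower in E07 than in HOCl mice and higher in D06 than in CTRL mice. The comparisons that use the HOCl or CTRL mice share them and are not independent of each other. None of the 17 genes of the core rings and the immunoproteasome, of the 6 cap ATPases or of the 4 core assembly factors was called by limma on vst values in any of the 10 comparisons made.

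The promoters of the 4 genes are shown because these genes moved together, beside that of Psmb5, a core gene that did not. They are RefSeq windows of 300 bases around the gene start (table build GRCm38.p6), written 5′ to 3′ on the gene's strand, and each matched the GRCm39 genome exactly once: Psme3 at chr11:101206789-101207088 (plus strand), Psmf1 at chr2:151583181-151583480 (minus), Psmd4 at chr3:94949876-94950175 (minus), Psme4 at chr11:30721525-30721824 (plus) and Psmb5 at chr14:54855403-54855702 (minus). Capitals mark matches on either strand to 5 motifs, spelled out after the sequences.
Psme3: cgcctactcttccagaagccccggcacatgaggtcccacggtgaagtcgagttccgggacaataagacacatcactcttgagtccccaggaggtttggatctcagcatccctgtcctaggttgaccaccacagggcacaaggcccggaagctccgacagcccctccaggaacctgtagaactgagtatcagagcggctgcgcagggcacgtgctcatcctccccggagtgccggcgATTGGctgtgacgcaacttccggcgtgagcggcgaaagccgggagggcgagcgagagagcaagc
Psmf1: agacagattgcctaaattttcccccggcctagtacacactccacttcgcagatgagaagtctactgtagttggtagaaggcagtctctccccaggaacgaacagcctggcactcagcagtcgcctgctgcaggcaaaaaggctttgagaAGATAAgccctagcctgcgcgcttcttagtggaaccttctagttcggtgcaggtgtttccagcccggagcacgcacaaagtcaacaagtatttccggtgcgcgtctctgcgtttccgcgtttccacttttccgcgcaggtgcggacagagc
Psmd4: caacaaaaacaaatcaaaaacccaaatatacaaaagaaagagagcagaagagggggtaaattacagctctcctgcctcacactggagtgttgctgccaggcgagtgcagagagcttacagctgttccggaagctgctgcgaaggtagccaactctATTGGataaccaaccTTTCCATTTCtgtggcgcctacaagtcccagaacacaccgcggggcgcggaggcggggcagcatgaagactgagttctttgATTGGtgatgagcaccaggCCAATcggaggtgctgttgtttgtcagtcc
Psme4: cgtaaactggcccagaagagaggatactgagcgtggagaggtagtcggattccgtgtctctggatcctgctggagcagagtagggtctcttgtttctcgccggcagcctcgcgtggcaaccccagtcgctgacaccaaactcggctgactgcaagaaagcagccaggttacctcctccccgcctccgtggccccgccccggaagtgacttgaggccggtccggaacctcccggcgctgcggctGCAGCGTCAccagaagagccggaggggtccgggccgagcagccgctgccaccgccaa
Psmb5: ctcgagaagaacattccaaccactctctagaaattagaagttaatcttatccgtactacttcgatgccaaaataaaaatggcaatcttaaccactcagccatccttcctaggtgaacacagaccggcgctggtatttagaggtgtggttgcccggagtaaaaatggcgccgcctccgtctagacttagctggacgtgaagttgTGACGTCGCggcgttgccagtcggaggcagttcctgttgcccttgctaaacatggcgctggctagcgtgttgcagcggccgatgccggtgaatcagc

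The motifs were AGATAA or TGATAA (bound by GATA factors), CCACACCC (bound by KLF1), TGACNNNGC (the core of the antioxidant response element, bound by NRF1 and NRF2), the interferon-stimulated response element (ISRE, a pair of GAAA with 2 bases between) and CCAAT. Matches of different motifs may overlap. The Psmf1 window held a GATA motif at position -101 from the RefSeq start, the Psme4 window held TGACNNNGC at -7 and the Psmb5 window at -47. The GENCODE vM39 annotation starts Psmf1 (minus strand) at 151586119 and Psme3 (plus strand) at 101206777. The windows of these genes therefore lie wholly inside the annotated genes, downstream of those starts. The Psmd4 window held an ISRE match at -80 and 3 CCAAT boxes, and Psme3 a CCAAT box at -14. A match is a description of letters and not a bound site. A window was found for 42 of the 49 genes (46 windows, as some genes had several). Of these 46 windows, 5 held a GATA motif (10.9%, against 18.6% of the 32851 windows of all genes), 1 held CCACACCC (2.17% against 3.56%), 6 held TGACNNNGC (13.0% against 12.4%), 5 held an ISRE match (10.9% against 3.44%) and 15 held CCAAT (32.6% against 37.4%). The 4 genes that moved together shared none of the motifs as a group.

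Levels were first set beside each other per exon length in CTRL mice, as RPKM computed from the counts and merged exon lengths (GENCODE vM39). Psme3 was the most abundant of the 49 genes at 151 ± 47.0 (SD, n = 11). Psmb8 (54.9 ± 12.2) and Psmb10 (49.7 ± 13.1) of the immunoproteasome came next, followed by Psme2 at 47.1 ± 10.1. The ranges of these 3 genes overlapped one another (27.0 to 77.5 for Psmb10). The constitutive subunits that Psmb8 and Psmb10 replace were at 13.9 ± 2.88 (Psmb5) and 10.9 ± 2.42 (Psmb7). These gaps also rest on the merged exon lengths, 1732 bases for Psmb10 and 6025 for Psmb7, and 3414 for Psmb8 and 1794 for Psmb5. In vst values, which are not scaled by length, Psmb10 exceeded Psmb7 by a mean of only 0.33 in CTRL mice (-0.08 to 0.88). Psmb8 exceeded Psmb5 there by 2.45 (1.88 to 2.79). Psmb9, the remaining immunoproteasome gene, ranked 12 of 49 (25.9 ± 5.41), and its range overlapped that of its counterpart Psmb6 (31.3 ± 7.38). By group of genes the median level was 49.7 for the immunoproteasome, 32.6 for activators and inhibitor, 21.7 for the alpha ring, 17.2 for the beta ring, 12.2 for cap ATPases, 9.17 for cap non-ATPases, 3.56 for core assembly factors and 2.70 for cap assembly chaperones. That order also rests on the exon lengths of the annotation. In mean vst value over all mice, Psmb10, at rank 3 by RPKM, stood above 83.6% of all genes, and Psmb1, at rank 18, above 92.6%. Within the alpha ring the mean RPKM ran from 6.97 (Psma3) to 40.8 (Psma6). Their merged exon lengths were 10672 and 2222 bases, respectively. In mean vst value over all mice Psma3 stood above 83.1% of all genes and Psma6 above 85.5%. The gap in RPKM thus rests largely on the division by length, and is no measure of unequal RNA of subunits present in equal numbers.

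**Figure D1:**
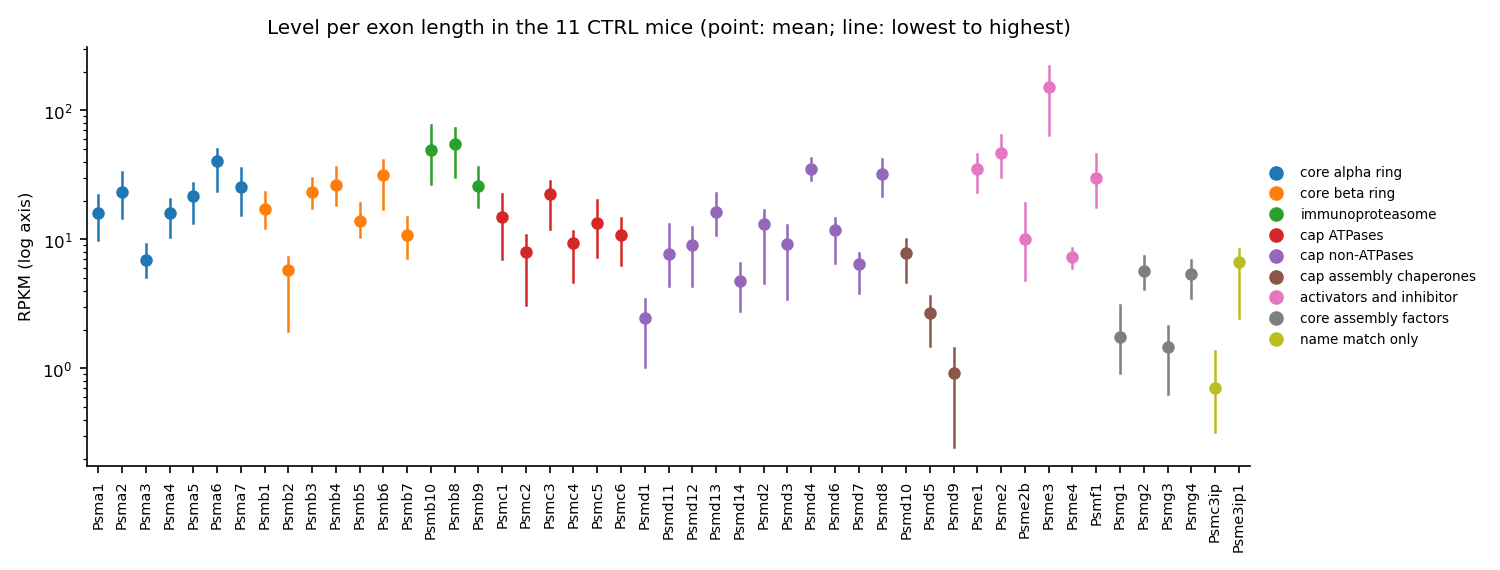
Level of each of the 49 genes in the 11 CTRL mice, as RPKM on a log axis. Points are means and lines run from the lowest to the highest mouse. Psme3 stood highest (mean 151), and Psmd9 (0.927) and Psmc3ip (0.701) lowest.

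Psme3 (chromosome 11, 101206777 to 101215813) encodes PA28 gamma, a nuclear activator that acts without ATP. Its vst value ranged from 11.53 to 14.22 (median 13.03) in CTRL mice, from 13.18 to 15.39 (14.34) in HOCl mice, from 12.38 to 14.90 (13.49) in D11 mice, from 12.08 to 13.77 (12.65) in E07 mice, from 13.23 to 16.13 (13.91) in D06 mice and from 12.55 to 14.96 (13.74) in BPR21 mice. All 11 HOCl mice stood above the CTRL median and 6 above every CTRL mouse, and all 12 E07 mice stood below the HOCl median and 8 below every HOCl mouse, so the ranges overlapped in both comparisons. The log2 fold change was 1.26 ± 0.26 (SE) in HOCl compared with CTRL mice (2.39-fold higher, limma FDR = 0.00562) and -1.45 ± 0.22 in E07 compared with HOCl mice (FDR = 0.000115).

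Psmf1 (chromosome 2, 151557732 to 151586119) had vst values of 10.35 to 12.46 (median 11.30) in CTRL, 11.42 to 13.65 (12.52) in HOCl, 11.01 to 13.25 (12.06) in D11, 10.60 to 12.15 (11.41) in E07, 11.19 to 14.07 (12.39) in D06 and 11.12 to 13.36 (12.11) in BPR21 mice. All 11 HOCl mice stood above the CTRL median, and all 12 E07 mice below the HOCl median. It was 2.13-fold higher in HOCl than in CTRL mice (log2 fold change 1.09 ± 0.24, FDR = 0.00673) and its change from HOCl to E07 was -1.11 ± 0.20 (FDR = 0.000419).

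Psmd4 (chromosome 3, 94937765 to 94949925) encodes a cap subunit that binds ubiquitin chains. Its vst values were 10.52 to 11.96 (median 11.02) in CTRL, 10.92 to 13.25 (11.91) in HOCl, 10.71 to 12.25 (11.51) in D11, 10.51 to 11.40 (10.83) in E07, 10.60 to 12.88 (11.85) in D06 and 10.68 to 12.72 (11.54) in BPR21 mice. Of the HOCl mice 10 of 11 stood above the CTRL median, and 12 of 12 E07 mice stood below the HOCl median, 7 of them below every HOCl mouse. The log2 fold change was 0.80 ± 0.20 in HOCl mice (FDR = 0.0154) and -0.98 ± 0.18 from HOCl to E07 (FDR = 0.000404). Between the antibodies it was lower under E07 than under D11, at -0.53 ± 0.15 (FDR = 0.0315), with 12 of 12 E07 mice below the D11 median. That call was lost in a fit of all 6 groups (FDR = 0.127, 0 of 10508 genes called), with an erythroid score, the mean standardized level of 31 red cell markers, as a covariate (-0.04, FDR = 0.880, 0 genes called) and with counts scaled by each mouse's total (-0.16, FDR = 0.221).

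Psme4 (chromosome 11, 30721725 to 30830376) encodes PA200, a large activator with a known role in spermatogenesis. Its vst values were 9.33 to 10.33 (median 9.70) in CTRL, 9.52 to 11.41 (10.33) in HOCl, 9.54 to 10.82 (9.79) in D11, 9.07 to 9.97 (9.60) in E07, 9.58 to 11.85 (10.44) in D06 and 9.30 to 10.13 (9.78) in BPR21 mice. The groups overlapped, with 10 of 11 HOCl mice above the CTRL median and all 12 E07 mice below the HOCl median. The change was 0.60 ± 0.16 in HOCl mice (FDR = 0.0257) and -0.72 ± 0.15 from HOCl to E07 (FDR = 0.00153). Its HOCl call was lost when 1 of 4 mice was left out (HOCl mouse 6 or CTRL mouse 1, 2 or 7; FDR up to 0.0541), while its fold change stayed between 0.49 and 0.68 over all 22 fits with 1 mouse left out.

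**Figure D2:**
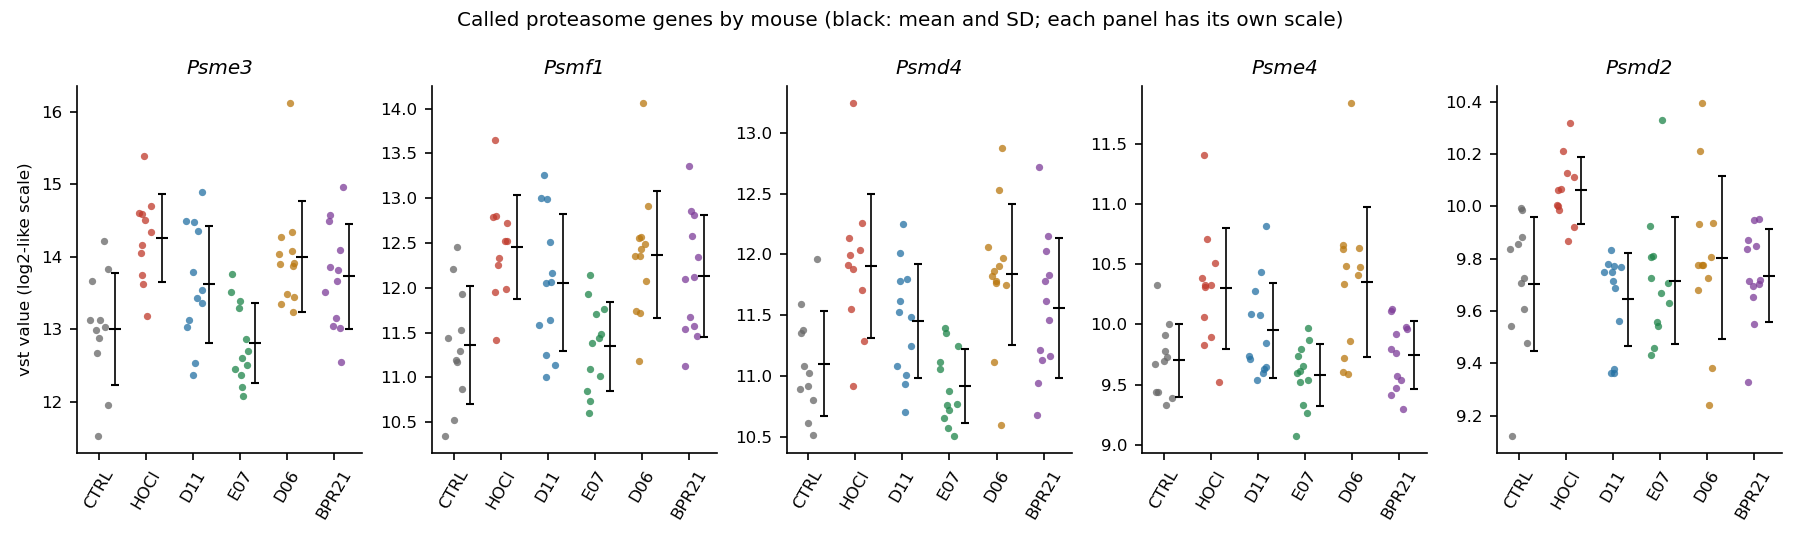
The vst value of the 5 called genes in every mouse, by labelled group, with the mean and SD in black and a separate scale in each panel. Psme3, Psmf1, Psmd4 and Psme4 stood high in HOCl and D06 and low in CTRL and E07 mice, with overlap. Psmd2 stood high in the HOCl group, with 12 of 12 D11 mice below every HOCl mouse. The share of all genes separated in this way is not reported here.

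The question of the first comparison was what HOCl changes in blood. The 4 genes were 8.16% of the 49, and 4.79% of all genes were called higher (4.96% in either direction), a background near enough that the count is no result about the list as a whole. The median log2 fold change was -0.04 over the 49 genes and -0.02 over all genes. Genes of the core rings and the immunoproteasome lay between -0.19 and 0.04, with 15 of 17 below 0, and none of their FDRs was under 0.243. With no share of all genes below 0 reported here, that count is no result about these genes. In edgeR on the counts, with all 12 HOCl mice, the same 4 genes and Psmd2 were called, where 5.12% of all genes were.

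Compared with HOCl mice, E07 mice had 4 of 49 genes lower, where 7.01% of all genes were lower (7.89% in either direction), and edgeR called the same 4 genes, where it called 11.2% of all genes. The median over the 49 was 0.08, against 0.02 over all genes. Of the 17 core and immunoproteasome genes 16 lay above 0, from -0.07 to 0.31. How many of all genes lay above 0 is not reported here, so this count is no result about these genes. Psma4 (0.31 ± 0.08, FDR = 0.00963), Psmb1 (0.26 ± 0.07, FDR = 0.00871), Psmb3 (0.23 ± 0.07, FDR = 0.0363) and Psmb8 (0.17 ± 0.06, FDR = 0.0456) passed the FDR but not the fold change. Psmb1 and Psmb3 belong to the beta ring and Psma4 to the alpha ring. How many of all genes passed the FDR alone is not reported here. All 12 E07 mice stood above the HOCl median for Psma4, Psmb1 and Psmb8.

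**Figure D3:**
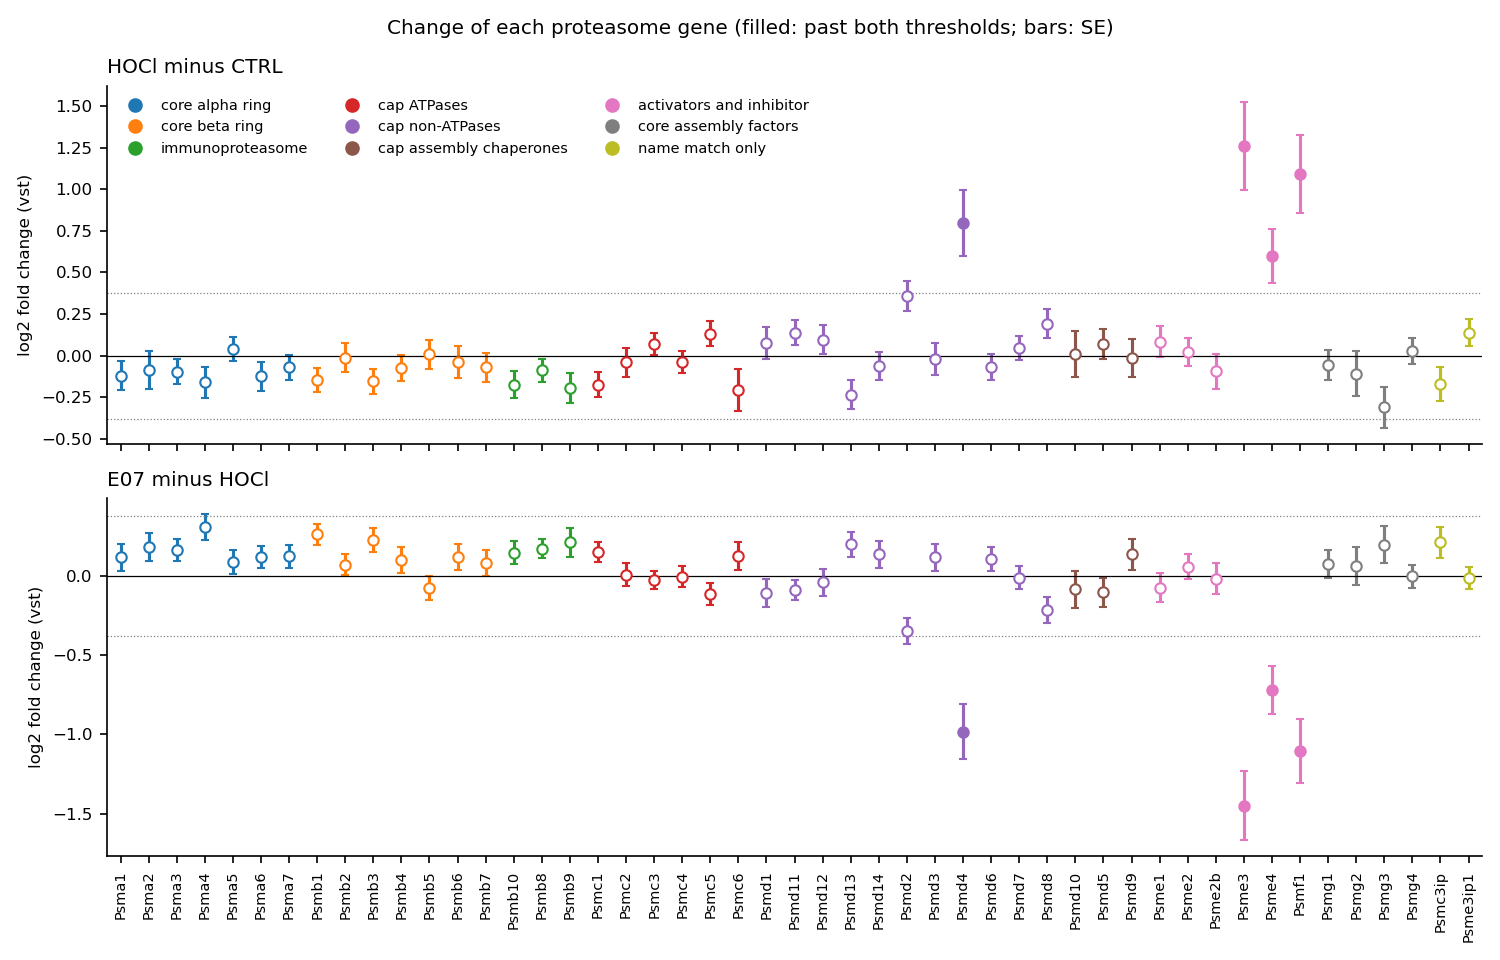
The log2 fold change of each gene with its SE, in HOCl compared with CTRL mice (upper panel) and in E07 compared with HOCl mice (lower panel), ordered and coloured by place in the proteasome. Filled points passed both thresholds and dotted lines mark a fold change of 1.3. Both panels use the same HOCl mice. The 4 filled genes moved by 0.60 to 1.26 and by -1.45 to -0.72, and the 17 core and immunoproteasome genes by -0.19 to 0.04 and by -0.07 to 0.31.

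The scaling of the libraries set a limit. The size factors of the libraries, by which counts are divided, were 1.29 ± 0.26 in CTRL and 0.938 ± 0.229 in HOCl mice at similar totals. When counts were instead scaled to each mouse's total (log2 of CPM plus 1), the median of all genes moved to -0.47 in HOCl compared with CTRL mice and to 0.49 in E07 compared with HOCl mice. On that scale 2 of the 49 genes were higher and 36 lower in HOCl mice, and 39 were higher and 3 lower in E07 mice. Since the share of all genes called on that scale is not reported here, these counts are no result about the list. Psme3 was 0.79 higher in HOCl mice there, which is 1.26 above the median of all genes, and Psmf1 was 0.65 higher, or 1.12 above it. Psmd4 (0.35) and Psme4 (0.19) were not called on that scale, and stood 0.82 and 0.66 above the median. In E07 compared with HOCl mice Psme3, Psmf1, Psmd4 and Psme4 stood between -1.45 and -0.80 relative to the median of all genes. In whole blood, fewer cells of a type and less RNA per cell cannot be told apart.

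Erythroid markers moved with the same groups. Of 31 measured genes of red cell precursors, all 31 were higher in HOCl than in CTRL mice and 27 were called, with a median log2 fold change of 1.23, and all 31 were lower in E07 than in HOCl mice, 29 of them called (median -1.25). The full list has 32 genes, of which Ahsp is not in the table of vst values. Genes of the full list in the count table together held 3.40 to 10.7% of the counts in CTRL, 8.27 to 18.7% in HOCl, 5.31 to 13.0% in D11, 4.84 to 9.92% in E07, 7.67 to 19.1% in D06 and 6.38 to 12.5% in BPR21 mice. With group means removed, the vst values of 4 genes followed the mean z-score of the 31 genes closely over the 70 mice. Pearson's r was 0.96 for Psmd4 (Spearman's rho 0.95), 0.95 for Psme3 (0.96), 0.94 for Psmf1 (0.93) and 0.83 for Psme4 (0.83). Each had a permutation p of 0.0001, the smallest that 10000 resamples can give, and an adjusted p of 0.00098 over the 49 genes. Leaving out the 2 mice farthest from the median score gave 0.95, 0.95, 0.94 and 0.78. Within single groups r ranged from 0.94 to 0.99 for Psmd4 and from 0.59 to 0.97 for Psme4.

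Psmd8, a cap subunit that was never called, followed at 0.72 (rho 0.70, adjusted p = 0.00098). Of all genes in the table, 0.533% had a higher r than Psmd4, 0.847% than Psme3, 0.98% than Psmf1, 3.84% than Psme4 and 5.32% than Psmd8. Over the 17 core and immunoproteasome genes the median was -0.16 (range -0.32 to 0.24), and over all genes it was -0.07. The values of a mouse share 1 library and 1 size factor. The erythroid score was next a covariate of the fits of HOCl and CTRL, E07 and HOCl, and D06 and CTRL mice. None of the 49 genes was called in these fits, and the change of Psme3 in HOCl compared with CTRL mice was 0.05 (limma FDR = 0.921). The score itself differed between groups, with means of -0.70 in CTRL, 0.69 in HOCl, -0.75 in E07 and 0.57 in D06 mice. The share of all genes called in these fits is not reported here, so the loss of calls cannot be read as particular to the 49 genes. At an unadjusted p under 0.05 in these fits were 7, 6 and 5 of the 49, in the same order. The share of all genes at that p is not reported here, so these counts are no result about the list. Platelet markers also moved, with 4 of 6 called higher in HOCl mice and 6 of 6 called lower in E07 mice, as did interferon-response genes, with 3 of 10 called higher and 5 of 10 called lower, beside 4.79% of all genes called higher in HOCl mice and 7.01% called lower in E07 mice. Of the B cell markers 5 of 6 were called higher in E07 than in HOCl mice, as were 92 of all 10508 genes, and none was called in HOCl compared with CTRL mice. None of 9 T cell markers was called in either comparison, and their mean share of the counts was 0.175% in CTRL, 0.115% in HOCl and 0.171% in E07 mice. Of the neutrophil markers 1 of 6 was called higher in HOCl mice, and of the monocyte markers 1 of 5 was called lower in E07 mice. The part of these cells and of the interferon-response genes in the changes was not tested.

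**Figure D4:**
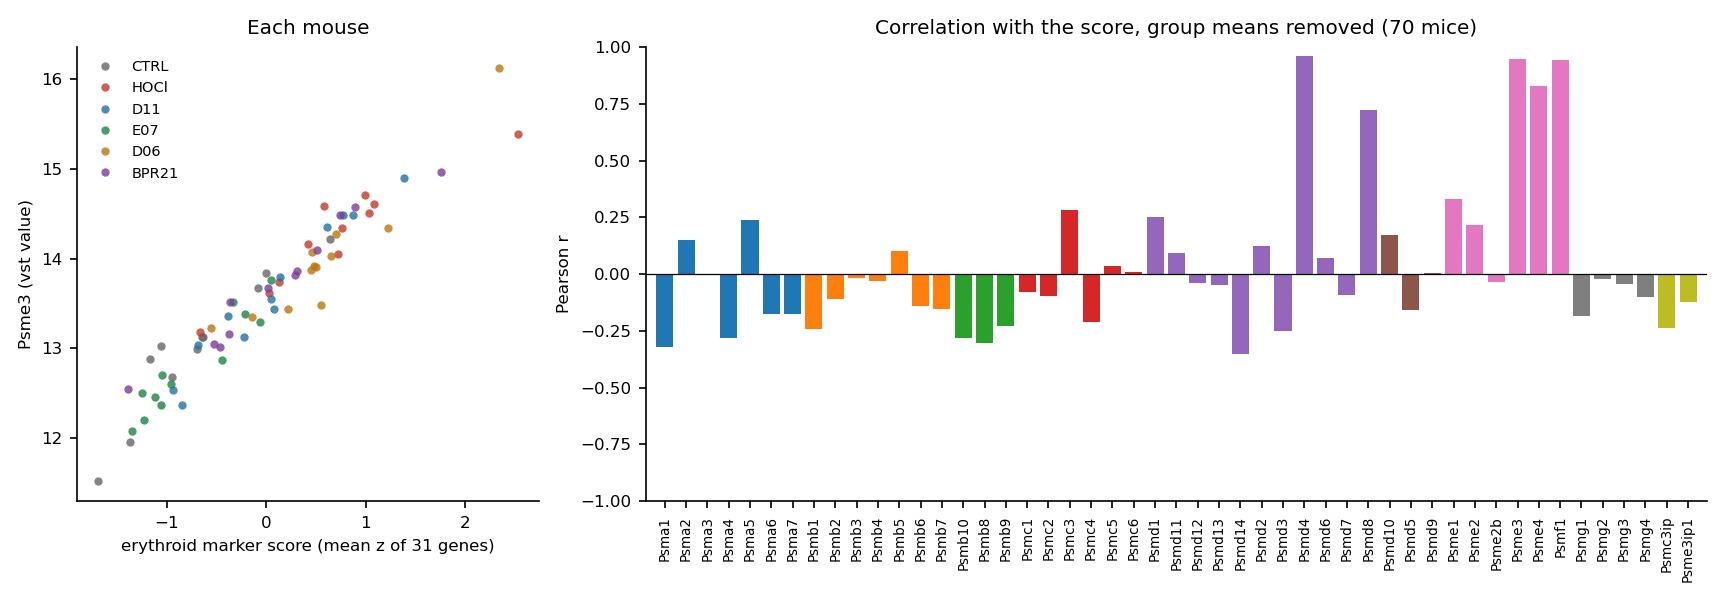
Left, the vst value of Psme3 against the erythroid score (mean z-score of 31 genes) in each of 70 mice, coloured by group. Right, Pearson's r of each gene with that score after group means were removed, coloured by place in the proteasome as in the plot of levels per exon length. Psmd4, Psme3, Psmf1, Psme4 and Psmd8 had r of 0.72 to 0.96, and the other 44 genes lay between -0.35 and 0.33.

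The 4 genes also moved with each other from mouse to mouse. Over their 6 pairs, and again without group means, r ranged from 0.76 to 0.95 (median 0.85, 70 mice). Their median r with the 14 core ring genes was -0.10, and with the 3 immunoproteasome genes it was -0.28. Core ring genes were less tightly related to each other, with a median of 0.32 over 91 pairs (-0.33 to 0.67), and cap ATPases had a median of 0.03 over 15 pairs. The spread within groups followed the same division: its SD was 0.71 for Psme3, 0.65 for Psmf1, 0.50 for Psmd4 and 0.42 for Psme4, and no other gene of the 49 exceeded 0.30. The median SD was 0.20 over the 49 genes and 0.26 over all genes.

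Psmd2, a scaffold subunit of the cap base that binds ubiquitin, had another pattern. Its vst values were 9.12 to 9.99 (median 9.73) in CTRL, 9.87 to 10.32 (10.06) in HOCl, 9.36 to 9.83 (9.73) in D11, 9.43 to 10.33 (9.69) in E07, 9.24 to 10.40 (9.78) in D06 and 9.33 to 9.95 (9.72) in BPR21 mice. The 12 D11 mice all stood below the 11 HOCl mice, and in normalized counts, which include HOCl mouse 8, they stood below all 12. How many of all genes separated these groups in this way is not reported here. It was the gene of the 49 called in D11 compared with HOCl mice, at -0.42 ± 0.08 (1.34-fold lower, limma FDR = 0.0231), where 0.0285% of all genes, 3 of 10508, were called lower and 0.0571% in either direction. In HOCl compared with CTRL mice it was 0.36 ± 0.09 (FDR = 0.0163), just short of the fold change. It was -0.35 ± 0.08 in E07 (FDR = 0.00592), -0.33 ± 0.08 in BPR21 (FDR = 0.0388) and -0.26 ± 0.10 in D06 compared with HOCl mice (FDR = 0.296). Since these comparisons share the HOCl mice, the high level of that group enters each of them.

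Psmd2 did not follow the erythroid score (r = 0.12, adjusted p = 0.524). With that score as a covariate its D11 change was -0.37 (FDR = 0.0511). The call was lost when HOCl mouse 6 was left out (FDR = 0.0662). Scaled to total counts, Psmd2 stood at -0.07 in HOCl compared with CTRL mice, which is 0.40 above the median of all genes there, and at -0.37 in D11 compared with HOCl mice, 0.47 below it. A processed pseudogene, Gm4462, lies within Psmd2 on the same strand, and reads of the pair could be exchanged.

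With the D11, D06 and BPR21 groups the question was what each treatment changed relative to HOCl alone. None of the 49 genes was called in D06 compared with HOCl mice, where 0.133% of all genes were. There edgeR and DESeq2 called 0 of the 49. None was called in BPR21 compared with HOCl mice either, where 0.638% of all genes were. For BPR21 mice edgeR called Psmd2 and DESeq2 called Psmd2 and Psme4. What share of all genes these tools called there is not reported here. At an unadjusted p under 0.05 were 8 (D06) and 4 (BPR21) of the 49. Without the share of all genes at that p, these counts are no result about the list. Psme3 stood at -0.64 ± 0.27 in D11 (FDR = 0.278), -0.26 ± 0.26 in D06 (FDR = 0.712) and -0.53 ± 0.25 in BPR21 mice (FDR = 0.343) relative to HOCl mice. Psmf1 stood at -0.40 ± 0.25, -0.08 ± 0.24 and -0.32 ± 0.24 in the same order, Psmd4 at -0.45 ± 0.20, -0.07 ± 0.22 and -0.34 ± 0.22, and Psme4 at -0.35 ± 0.17, 0.05 ± 0.21 and -0.56 ± 0.16. For Psme4 in BPR21 mice the FDR was 0.0859, with 12 of 12 mice below the HOCl median.

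Compared directly, E07 mice had lower values than D11 mice for Psmd4 (above), where 4.27% of all genes were called lower and 4.57% in either direction. Psme3 stood at -0.81 ± 0.25 (FDR = 0.0506), Psmf1 at -0.71 ± 0.23 (FDR = 0.0648) and Psme4 at -0.37 ± 0.13 (FDR = 0.076), and edgeR called all 4. What share of all genes edgeR called in this comparison is not reported here.

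Relative to CTRL mice, D06 mice had 4 genes higher, where 7.27% of all genes were called higher and 7.88% in either direction. These were Psmf1 (1.01 ± 0.25, limma FDR = 0.0087), Psme3 (1.00 ± 0.28, FDR = 0.0197), Psmd4 (0.73 ± 0.19, FDR = 0.0127) and Psme4 (0.65 ± 0.19, FDR = 0.022), and 29 of 31 erythroid markers were called higher there. On the total-count scale 1 of the 49 was higher and 37 were lower in D06 mice, where the median of all genes moved to -0.57. How many of all genes were called on that scale is not reported here, so these counts are no result about the list.

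None of the 49 was called in E07 (0.00952% of all genes), D11 (0.0761%) or BPR21 mice (0.504%) compared with CTRL mice. With an unadjusted p under 0.05 were 0, 3 and 9 of the 49, and edgeR and DESeq2 called 0 in each. No share of all genes at that p is reported here, so the counts by unadjusted p are no result about the list. E07 mice stood within 0.19 of CTRL mice for every one of the 49 genes, with Psme3 lowest at -0.19 ± 0.25 and Psma4 highest at 0.15 ± 0.08. Psmf1 stood at 0.70 ± 0.27 in D11 (FDR = 0.183) and 0.77 ± 0.25 in BPR21 mice (FDR = 0.106), the highest of the 49 in both comparisons. Psmb10 was the lowest in both, at -0.17 ± 0.07 (FDR = 0.244) and -0.28 ± 0.07 (FDR = 0.069).

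The swap of catalytic subunits was examined within each mouse, as the vst value of the immunoproteasome subunit minus that of the constitutive one, a measure that hardly depends on the scaling of the library. Psmb8 exceeded Psmb5 by 1.88 to 2.79 (median 2.48) in CTRL, 2.00 to 2.85 (2.41) in HOCl, 1.57 to 3.23 (2.38) in D11, 2.25 to 2.79 (2.64) in E07, 1.79 to 2.82 (2.24) in D06 and 1.82 to 2.85 (2.25) in BPR21 mice. For Psmb9 minus Psmb6 the group medians ran from 0.23 (HOCl) to 0.48 (CTRL), and for Psmb10 minus Psmb7 from 0.15 (D11) to 0.35 (CTRL). The ranges of the groups overlapped for each of the 3 differences. Of 30 two-sided permutation tests (3 differences in 10 comparisons, 100000 resamples), 3 had p under 0.05 and none had an adjusted p under 0.225. The largest difference was 0.25 ± 0.09 (SE) for Psmb8 minus Psmb5 in E07 compared with HOCl mice (permutation p = 0.009, adjusted p = 0.225). A shift in HOCl compared with CTRL mice was not detected for Psmb8 minus Psmb5 (-0.10 ± 0.10, permutation p = 0.351, adjusted p = 0.702).

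**Figure D5:**
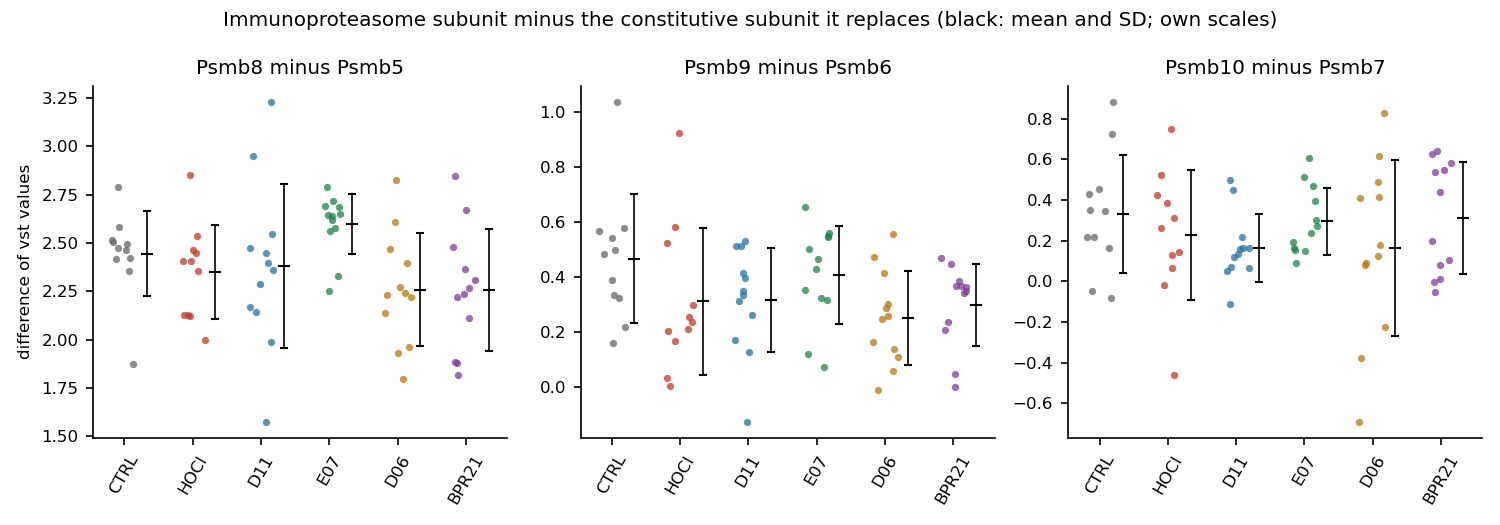
Difference of vst values between each immunoproteasome subunit and the constitutive subunit it replaces, by mouse and group, with mean and SD in black and a separate scale in each panel. Psmb8 exceeded Psmb5 in every mouse, by 1.57 to 3.23, and the groups overlapped in all panels.

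Among the remaining regulators, Psme1 (PA28 alpha) had group medians of 11.02 to 11.22 and Psme2 (PA28 beta) of 10.36 to 10.51, and neither was called in any of the 10 comparisons. Psme2b, a near copy of Psme2 with which reads may be shared, was not called either. Of the core assembly factors, Psmg3 had the lowest value of the 49 in HOCl compared with CTRL mice, at -0.31 ± 0.12 (FDR = 0.146), and the highest in D11 compared with HOCl mice, at 0.37 ± 0.11 (FDR = 0.156). It was a gene of few reads, with 4 to 92 counts (median 23.5) in HOCl and 26 to 93 (68) in CTRL mice. Psmg1, Psmg2 and Psmg4 had group medians of 7.62 to 7.79, 7.85 to 8.07 and 8.00 to 8.13, respectively, and Psmg2 was the lowest of the 49 in D06 compared with CTRL mice (-0.26 ± 0.10, FDR = 0.113). Psmd13 in BPR21 (0.21 ± 0.10) and Psma4 in D06 mice (0.26 ± 0.10) had the highest values relative to HOCl mice, Psme3ip1 in D06 mice the lowest (-0.34 ± 0.11), and Psmd3 the highest in E07 relative to D11 mice (0.16 ± 0.06). None of these passed the FDR.

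Proteins that work with the proteasome outside this naming were taken as a list of 27 measured genes: subunits and assembly factors under other names, ubiquitin genes and regulators of proteasome gene expression, among others. In HOCl mice 2 of 27 were called higher, where 4.79% of all genes were, and in E07 compared with HOCl mice 5 were called lower, where 7.01% of all genes were, with none in the opposite direction. Ubb, a polyubiquitin gene, was 1.08 ± 0.26 higher in HOCl than in CTRL mice (FDR = 0.0128) and stood at -1.28 ± 0.23 in E07 compared with HOCl mice (FDR = 0.000404). Usp14 (-0.49 ± 0.14), a deubiquitinase at the cap, Txnl1 (-0.44 ± 0.13), a thioredoxin bound to the cap, and Vcp (-0.41 ± 0.10), an unfoldase that delivers substrates, were lower in E07 than in HOCl mice. The median over the list was 0.06 and -0.14, respectively, beside -0.02 and 0.02 over all genes. In D06 compared with CTRL mice Ubb (1.02 ± 0.24) and Txnl1 (0.56 ± 0.14) were called higher, and in E07 compared with D11 mice Ubb (-0.81 ± 0.19) was called lower. Genes of the list encoding NRF1 and NRF2 (Nfe2l1 and Nfe2l2), factors that drive proteasome gene expression, and Pomp, the maturation factor of the core, were not called in any comparison.

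The annotation places Tmem74b on the strand opposite Psmf1, and noncoding genes opposite Psmd4 and Psme4, and the library was strand-specific. Whether strand was used in counting is not given in the sources used here, so reads of these overlapping genes may not be told apart. Psme3 has no overlapping gene in GENCODE vM39.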

How the data were processed

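RNA from whole blood was sequenced after poly A selection and globin depletion, with a strand-specific kit. The authors deposited raw read counts (unit: counts, not normalized) made, per the labels and the paper's methods, with cutadapt, STAR on mm39 and featureCounts, with versions and annotation release not given in the sources used here. The authors also deposited log2-like values from the vst function of DESeq2 for 10508 protein-coding genes above an expression filter, in 70 of 71 mice. The count table holds 55416 genes, and 10501 genes of the vst table were matched to 1 count gene.

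Groups came from the sample titles. The proteasome genes, gene lists and tests were chosen with earlier results of these data known. Each of 10 comparisons was a limma 3.58.1 fit (R 4.3.3) of the vst values of the 2 groups, with Benjamini-Hochberg FDR over all genes; a call needed an FDR no higher than 0.05 together with a fold change no smaller than 1.3. edgeR 4.0.16 (quasi-likelihood) and DESeq2 1.42.0 on counts were alternatives, with other filters, scalings, covariates, the replicate block and each HOCl mouse, or for HOCl against CTRL each CTRL mouse too, left out in turn. Subunit differences and correlations were tested by two-sided permutation (Python 3.11.15, scipy 1.17.1). The erythroid score was the mean z-score of 31 listed genes. Genes described in full were those called in any comparison, Psmb5 to Psmb10 by pairs, activators and inhibitor, Psmg1 to Psmg4, and the highest and lowest gene of each comparison; Psma4, Psmb1 and Psmb3 beside the FDR alone, and Psmd8, Psma3, Psma6, Psmd9, Psmc3ip, Psme2b, Nfe2l1, Nfe2l2 and Pomp were named after their values were seen. 1 gene of the list of proteins that work with the proteasome is counted but not reported here by name.

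On simulated counts of the HOCl and CTRL mice with 200 of 10501 genes changed, limma recovered 89% of 2-fold and 58% of 1.5-fold changes with 5 false calls, edgeR 89% and 63% with 8, and DESeq2 93% and 66% with 19. Totals of 11932855 to 15948972 counts per mouse limit precision for genes with few counts. Each mouse was 1 library. Promoter sequences came from RefSeq and coordinates from GENCODE vM39 on GRCm39.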

Additional observations from a re-analysis of the deposited data

Results flagged for a closer look

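For Psmd4, E07 minus D11 was -0.53 on the log2 scale, in 2 groups that both received HOCl (limma FDR = 0.0315, 12 of 12 E07 mice below the D11 median). It was singled out because the effects of the 2 mAbs relative to HOCl mice differed in a direct test. The difference did not pass in the fit of all 6 groups (FDR = 0.127), with the erythroid score as a covariate (FDR = 0.880) or on the total-count scale (FDR = 0.221).

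HOCl mouse 8 had counts but no vst values and entered only the count tests. In log2 of counts divided by the size factor, plus 1, it stood at 12.45 for Psmf1, above the highest CTRL mouse (12.42) and above 5 of the 11 other HOCl mice, at 11.96 for Psmd4 (CTRL up to 11.91, above 7 of 11) and at 10.04 for Psmd2 (CTRL up to 9.79, above 10 of 11). Psme3 (13.98) and Psme4 (9.60) lay within the CTRL range. No test for single outlying mice was run.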

How the results depend on the processing

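The directions of Psme3, Psmf1, Psmd4 and Psme4 in HOCl compared with CTRL and in E07 compared with HOCl mice were the same with edgeR, DESeq2, other filters, median centring, the 6-group fit and each HOCl mouse (for HOCl and CTRL, each CTRL mouse too) left out. Apart from the shares given above, those of all genes called under each setting are not reported here. The counts that follow thus cannot be read as particular to the 49 genes. The number of the 49 genes called in HOCl compared with CTRL mice was 4, and was 38 on the total-count scale, 0 with the erythroid covariate, 0 with the replicate block and 3 to 5 with 1 mouse left out. For E07 compared with HOCl mice it was 4, and 9 by FDR alone, 42 on the total-count scale, 0 with the covariate and 4 to 4 with 1 mouse left out. It was 5 with DESeq2, which added Psmd2, and 5 with edgeR without HOCl mouse 8 (chosen after seeing the data), which added Psma4, a core gene, as higher (0.38). For D11 compared with HOCl mice it was 1, and 0 on the total-count scale, with the covariate and with the replicate block, and 0 to 1 with 1 mouse left out. For BPR21 compared with HOCl mice it was 0, and 1 by FDR alone, 1 with edgeR, 1 with edgeR's own filter, 2 with DESeq2 and 0 to 1 with 1 mouse left out (Psme4 without HOCl mouse 1). For E07 compared with D11 mice it was 1, and 0 in the 6-group fit, 2 with median centring, 28 on the total-count scale, 0 with the covariate, 3 with the replicate block, 4 with edgeR, 4 without a filter, 3 with edgeR's own filter and 4 with DESeq2. For D06 compared with CTRL mice it was 4, and 38 on the total-count scale and 0 with the covariate. For BPR21 compared with CTRL mice it was 0, and 5 on the total-count scale and 2 with the replicate block. D06 compared with HOCl, E07 compared with CTRL and D11 compared with CTRL mice had 0 under each setting. None of the 30 subunit differences passed on the log2 CPM scale or with the replicate block.

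On the total-count scale genes not called on vst values were called in the opposite direction: Psmb5 (-0.45), Psme1 (-0.40), Psme2 (-0.46) and Psmg4 (-0.40) in HOCl compared with CTRL mice; Psmb5 (0.38), Psme1 (0.43) and Psmg4 (0.46) in E07 compared with HOCl mice; Psmb7 (-0.51), Psmd2 (-0.45), Psme1 (-0.54) and Psme2 (-0.48) in D06 compared with CTRL mice. With the erythroid covariate the sign changed and the call was lost for Psmd4 (-0.15), Psme4 (-0.14) and Psmf1 (-0.015) in HOCl compared with CTRL mice, for Psmd4 (0.0030) and Psme4 (0.084) in E07 compared with HOCl mice, and for Psme3 (-0.33), Psmf1 (-0.17), Psmd4 (-0.15) and Psme4 (-0.13) in D06 compared with CTRL mice. The cause was not tested.

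Same-numbered mice of 2 groups are different animals, and their numbers were not taken to pair them in the main fits. Each of the 10 comparisons had pairs whose deviations correlated below 0. Single pairs scatter, so this cannot exclude a block shared by mice of the same number. In each comparison the mean r of same-numbered mice lay above that of differently numbered mice. It was lowest for D06 and HOCl mice (0.010, against 0.00049 for differently numbered mice). It was highest for E07 and CTRL mice (0.146 against -0.0097), where 4 of 11 correlated best with their own number. For HOCl and CTRL mice it was 0.048 (-0.36 to 0.30, 1 of 10), against -0.0014. What the numbers stand for was not tested.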
